A study of Cercocebus atys with 16 samples.

Results

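IL4, IL5 and IL13 encode the leading cytokines of the type 2 immune response. They are 3 of the 11992 genes named on the array used here, and 6 of its 43603 distinct probes, 2 per gene, measured them. The 6 are every probe whose gene name in the annotation of the 12 later arrays is IL4, IL5 or IL13. The donors were 4 sooty mangabeys (Cercocebus atys), all infected with the simian immunodeficiency virus SIV, of which FNV and FKN were labelled CD4 normal, whereas the CD4 status of FBR and of FTV was labelled low. The cells were double-negative T cells from blood, so called because neither CD4 nor CD8 should be on their surface. Magnetic beads took away cells with CD4, CD8 or CD16 and then selected for CD3, with a labelled purity above 98%. After a night of rest, the unstimulated samples stayed without treatment and the stimulated samples received antibodies against CD3 (labelled 3 mg/ml) and CD28 (1 mg/ml) for 4 hours, which act on the antigen receptor of T cells and on a costimulatory receptor. Per animal there were 4 arrays with 2 colours. On 2 of them, called ratio arrays, stimulated RNA met unstimulated RNA with the dyes Cy3 and Cy5 exchanged, and 2 self-self arrays carried the same RNA in both dyes, stimulated on one and unstimulated on the other.

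Interleukin 4 directs naive helper T cells into the type 2 program and B cells towards immunoglobulin E, through a receptor made of IL4R and the common gamma chain IL2RG that signals by STAT6. Interleukin 13 uses IL4R with IL13RA1 and acts on epithelium and smooth muscle, and interleukin 5, through IL5RA and the common beta chain CSF2RB, drives the growth and survival of eosinophils. The 3 genes lie close together on the chromosome with the DNA repair gene RAD50 between IL5 and IL13, and in mouse and human T cells GATA3, NFAT and AP-1 factors open and activate this region after the T cell receptor is engaged.

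The probes are shown first, since the members' values rest on where in the transcript each probe binds. All were designed on the rhesus macaque genome (build rheMac2, coordinates as the array files give them), are 60 bases long and lie on chromosome 6. Mangabey sequence under the probes was not analysed here. The IL4 probes span chr6:129090299-129090358 and chr6:129090339-129090398 on the plus strand, and the capitals mark the 20 bases that they share.
IL4 A_01_P1696441: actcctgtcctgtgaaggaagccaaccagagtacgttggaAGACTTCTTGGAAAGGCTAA
IL4 A_01_P000164: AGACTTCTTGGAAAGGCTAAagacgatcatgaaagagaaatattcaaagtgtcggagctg
The IL13 probes, at chr6:129067867-129067926 and chr6:129067868-129067927 on the plus strand, share 59 bases, and the capital marks the only base the other probe lacks. They are therefore close to a repeat measurement of a single site.
IL13 A_01_P1671957: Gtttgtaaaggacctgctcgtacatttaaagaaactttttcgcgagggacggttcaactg
IL13 A_01_P1671956: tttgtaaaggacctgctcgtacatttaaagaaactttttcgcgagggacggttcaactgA
The first IL5 probe, at chr6:128945942-128946001 on the minus strand, ends at the TGA stop codon, shown in capitals.
IL5 A_01_P1672026: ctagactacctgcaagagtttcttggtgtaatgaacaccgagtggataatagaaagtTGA
The second IL5 probe, A_01_P008959, lies at chr6:128945809-128945868 on the minus strand, 73 bases past that stop codon and so in the 3′ untranslated part of the transcript. From the IL5 to the IL13 probes the gap is 122 kb, and from the IL13 to the IL4 probes 22.4 kb.

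The 4 arrays of FNV were scanned in an earlier batch, with a local background of 15.5 to 17 in Cy3 and 42 to 45 in Cy5, against 44 to 52 and 61 to 69 on the later arrays. On the stimulated self-self array of FNV, 38.4% of the spots were well above background in a channel, against 58.6% to 66.4% on the 12 later arrays, so levels there are less certain. The fit below used 27493 probes that were well above background, all 6 member probes among them. The median SD between animals over these probes was 0.16 on the log2 scale, and the arrays of 4 animals limited the precision. Replicates are the animals, and the labels do not say whether more than 1 culture was made from each.

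On the ratio arrays IL5 had the largest response of all tested probes, and all 6 member probes rose, where 40.3% of all tested probes passed the threshold in either direction and 19.9% rose. In RNA of many cells, more cells that make a transcript and more RNA per cell cannot be told apart. In the Cy5 channel of the ratio arrays, the spot signal of the stop codon probe was 580 in unstimulated and 20870 in stimulated cells of FNV, in scanner units before background correction. In FKN it went from 383 to 20435, in FBR from 185 to 31498 and in FTV from 179 to 11389. Stimulated signals were above every unstimulated signal. The ratios, taken over both dye orientations after background correction with limma's normexp (offset 50) and loess normalisation, were 5.84 in FNV, 5.58 in FKN, 6.84 in FBR and 5.72 in FTV on the log2 scale. The mean was 6.0 ± 0.58 (SD, n = 4), or 63.8-fold, with an adjusted p of 0.00047 in limma (Benjamini-Hochberg over all tested probes) and rank 1 of 27493. In FKN and FBR it also ranked 1, in FTV 2 and in FNV 3. The unstimulated Cy3 signal of this probe was weak in FBR (118 over a local background of 48) and FTV (81.5 over 50), though flagged well above background. The size of the ratio depended on the processing. The mean was 6.39 with normexp at an offset of 10 and 6.69 with the scanner software's own log ratio, and FTV had 6.33 and 6.84.

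The IL5 probe past the stop codon gave smaller ratios in every animal. Its values were 5.49 in FNV, 4.87 in FKN, 5.57 in FBR and 4.92 in FTV, with a mean of 5.22 ± 0.37 (log2, SD, n = 4), 37.2-fold, an adjusted p of 0.00047 (limma) and rank 5. The stop codon probe exceeded it by 0.35 in FNV, 0.70 in FKN, 1.27 in FBR and 0.80 in FTV. Both probes put FBR highest, and the size of the IL5 response therefore depended on the probe by 0.78 ± 0.38 (log2, mean and SD of 4 animals).

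IL4 rose in all 4 animals as well. The Cy5 spot signal of A_01_P1696441, the brighter IL4 probe, went from 419 to 8753 in FNV and from 2711 to 38552 in FKN. In FBR it went from 2817 to 65906 and in FTV from 1053 to 27313. The log2 ratios were 5.07 in FNV, 4.03 in FKN, 4.79 in FBR and 4.57 in FTV, a mean of 4.62 ± 0.44 (SD, n = 4), or 24.5-fold, with an adjusted p of 0.00047 (limma) and rank 9. The overlapping probe A_01_P000164 gave 5.27 in FNV, 4.48 in FKN, 5.46 in FBR and 4.86 in FTV. Its mean was 5.02 ± 0.44 (SD, n = 4), 32.3-fold, and was higher than that of the brighter probe in every animal, by 0.19 to 0.67. FKN had the smallest IL4 response with both probes.

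**Figure D1:**
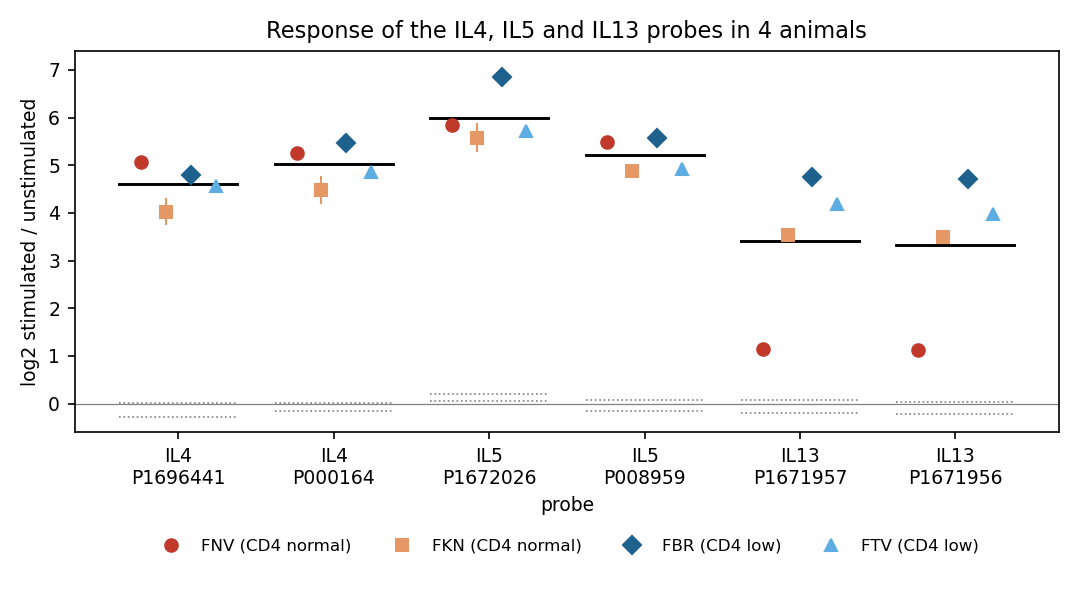
Log2 ratio of stimulated over unstimulated signal (vertical axis) for the 6 probes (horizontal axis), with 1 symbol per animal at the mean of its 2 ratio arrays, coloured lines joining the 2 dye orientations (hidden by the symbol where they nearly agree) and black bars at the mean of 4 animals. Dotted lines give the lowest and highest ratio on the 8 self-self arrays; the IL4 and IL5 ratios lie between 4.03 and 6.84 in all animals, while IL13 in FNV stands at 1.14 and 1.12.

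IL13 rose on average, and over all 4 animals its response differed more than that of IL4 or IL5. This rested on FNV. Without that animal the SD was 0.61 for the IL13 probe A_01_P1671957, against 0.69 for the IL5 stop codon probe and 0.39 for the brighter IL4 probe. In FNV the Cy5 signal of the brighter probe, A_01_P1671957, was 55.3 in unstimulated and 143 in stimulated cells, against a local background of 42 and 45. In FKN it went from 192 to 2196, in FBR from 232 to 6525 and in FTV from 128 to 2975. In these raw units the stimulated signal of FNV was below the unstimulated signal of FKN and FBR, while the IL5 signal of FNV on the same array lay among those of the later animals. The log2 ratios of this probe were 1.14 in FNV, 3.53 in FKN, 4.75 in FBR and 4.19 in FTV. The second probe gave 1.12, 3.50, 4.72 and 3.98 in the same order of animals.

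The mean IL13 response was 3.40 ± 1.59 (log2, SD, n = 4), 10.6-fold, with an adjusted p of 0.0095 in limma, and 3.33 ± 1.56 with the second probe (adjusted p = 0.0096). Without FNV, the mean was 4.16 ± 0.61 (n = 3), or 17.8-fold, with an adjusted p of 0.00080 (limma). IL13 ranked 20 of 27493 probes in FKN, 11 in FBR and 17 in FTV, and 568 in FNV. In none of the 4 unstimulated channels of FNV was an IL13 probe well above background. The ratios of FNV given here therefore rest on an unstimulated signal that was not measured above background, and so do the means that include them. The mean of the brighter probe moved to 4.09 with normexp at an offset of 10, to 5.04 with the scanner software's own log ratio (5.09 for the second probe) and to 4.60 in the authors' deposited table.

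**Figure D2:**
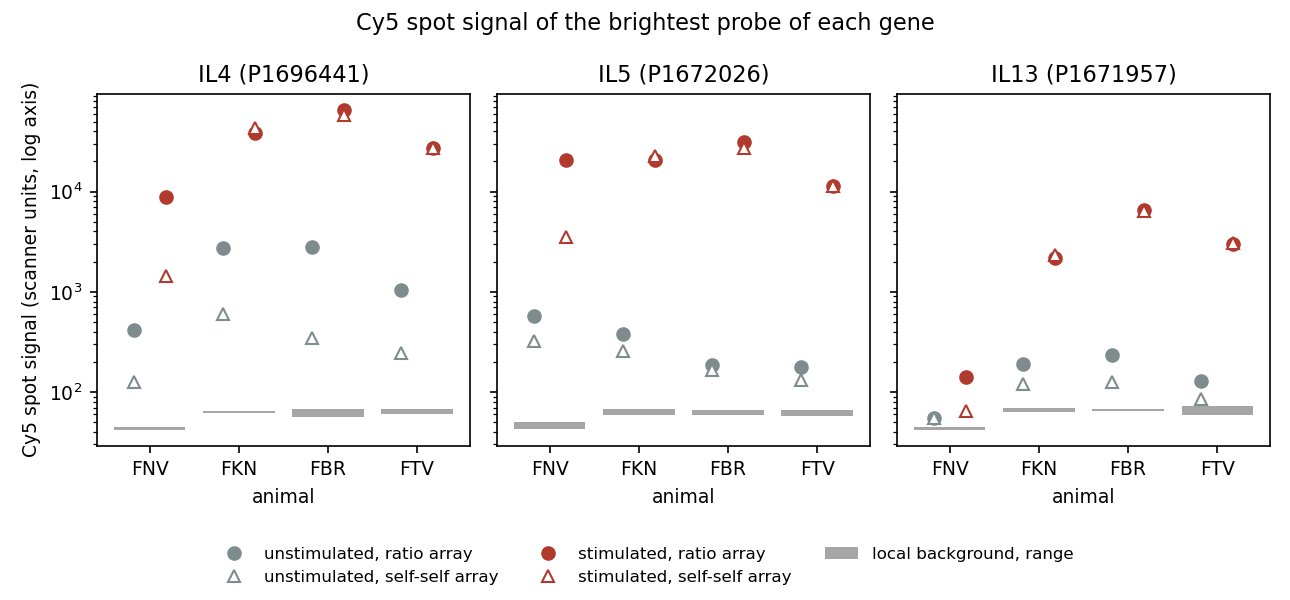
Spot signal in the Cy5 channel (scanner units, log axis) of the brightest probe of each gene in the 4 animals (horizontal axis), grey for unstimulated and red for stimulated RNA, filled circles for ratio arrays and open triangles for self-self arrays, with grey bands at the range of local background. Stimulated IL13 in FNV lies at 143 and 64.5, near its background, whereas stimulated IL4 and IL5 in FNV lie far above it; unstimulated IL4 is higher on the ratio arrays than on the self-self arrays of each animal.

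How low IL13 stood in FNV depended on the processing of weak signals. For the brighter probe, FNV had 1.08 with median centring in place of loess, 1.63 without background correction and 2.15 with normexp at an offset of 10, below the other animals in each case (lowest 3.60, 3.59 and 4.08). The scanner software's own log ratio, which subtracts background first, gave 4.49 in FNV, against 4.50 in FKN, 5.46 in FBR and 5.69 in FTV, and for the second probe 5.21 in FNV, within the range of the other animals. In the authors' deposited table IL13 had 3.1 in FNV, 4.55 in FKN, 5.41 in FBR and 5.36 in FTV. A measure that needs neither normalisation nor background correction is the share of probes with a weaker signal in the same channel. For the stimulated channels it was 62.9% to 68.6% in FNV, against 83.1% to 84.0% in FKN, 91.5% to 92.3% in FBR and 84.9% to 86.0% in FTV. For the IL5 stop codon probe the share in stimulated channels was 98.1% to 98.4% in FNV and 93.7% to 97.0% in the other animals. IL13 was thus ranked lower in stimulated cells of FNV than of any other animal, and IL5 was not. Unstimulated IL13 was also lowest in FNV, at a mean share of 25.8%, against 52.1% in FKN, 54.8% in FBR and 42.2% in FTV. From unstimulated to stimulated the share gained 41.1 percentage points in FNV, 31.4 in FKN, 37.1 in FBR and 43.3 in FTV. This gain does not measure the size of a response. In FNV the IL5 stop codon probe gained only 21.3 points at a log2 ratio of 5.84. The unstimulated share of IL13 in FNV also ranks signals that were not well above background, so its gain cannot be set against those of the other animals. FNV is also the only animal of the earlier scan batch, so the animal and the batch cannot be told apart.

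**Figure D3:**
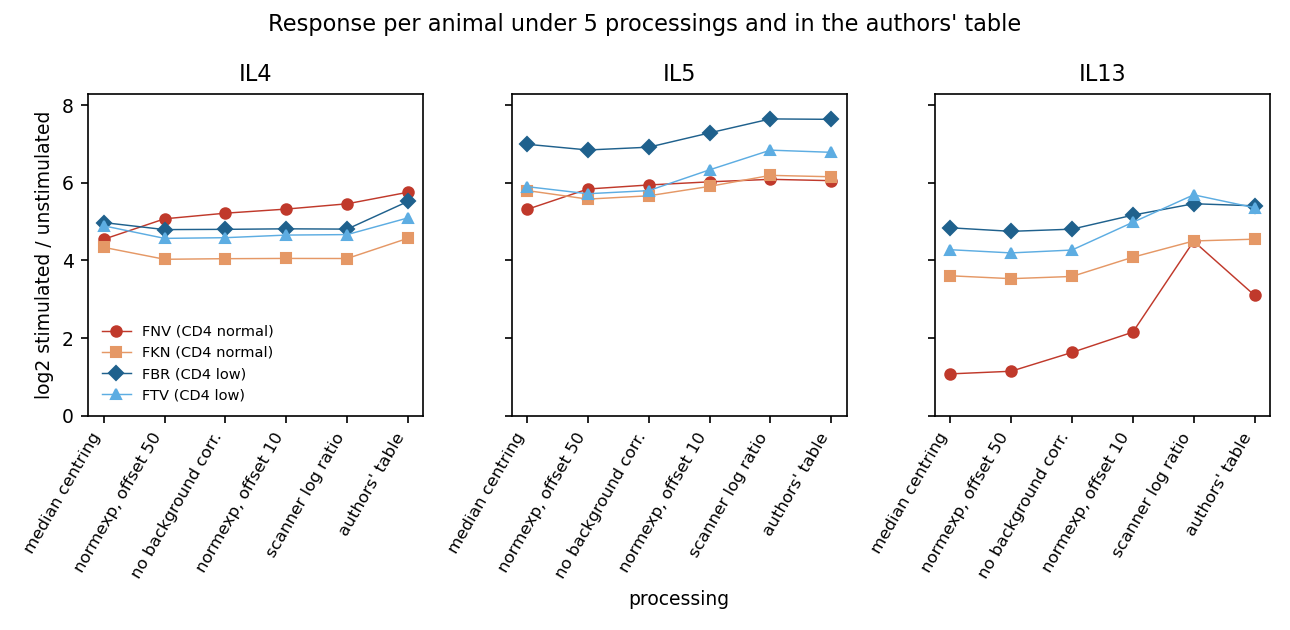
Log2 ratio of stimulated over unstimulated signal (vertical axis) of the brightest probe of IL4, IL5 and IL13 in each animal under 5 processings and in the authors' deposited table, which gives 1 value per transcript (horizontal axis; lines only join an animal's values). IL13 in FNV ranges from 1.08 to 4.49, and the IL4 and IL5 ratios stay between 4.03 and 7.65.

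The self-self arrays measured the same RNA without a second condition in the hybridisation. Within an array their ratios were between -0.27 and 0.20 for the 6 probes over 8 arrays, far from the responses. The level of the stimulated self-self array minus that of the unstimulated one (Aquantile-normalised log2 levels) gave a second estimate of the response. For IL5 it was 5.66 in FNV, 5.16 in FKN, 6.28 in FBR and 5.17 in FTV, a mean of 5.57. For IL4 it was 5.74, 5.28, 6.58 and 5.87 in the same order, a mean of 5.87 that exceeds the 4.62 of the ratio arrays. On the self-self arrays the IL4 probes ranked 1 and 2 among the tested probes and the IL5 stop codon probe 3. For IL13 it was 1.71, 3.1, 4.65 and 3.85, again lowest in FNV. That value of FNV is uncertain, since its stimulated signal was 64.5 over a background of 43.5 in Cy5. In Cy3 it was 30.1 over 16, not well above background, and its unstimulated signal was not so in either dye. With the animal as a replicate block, all 6 probes passed on these arrays (adjusted p of 0.00088 for the brightest probes of IL4 and IL5 and 0.0053 for that of IL13, limma).

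Among the members, the 2 kinds of array differed most for unstimulated IL4. The unstimulated level of the brighter IL4 probe was 0.91 higher on the ratio arrays than on the self-self arrays in FNV, 1.36 in FKN, 2.10 in FBR and 1.50 in FTV, on the log2 scale. The mean of 1.47 stood at rank 3 among the tested probes, and that of the other IL4 probe (0.94) at rank 4, where the median probe moved by 0.01. A probe of LTA (1.61) and an unnamed probe (1.49) stood above them, and a probe of IL17A (0.66) came next at rank 5. The IL5 stop codon probe moved by -0.10, and only 4.64% of the tested probes had a lower value. The brighter IL13 probe moved by 0.04. The second IL5 probe moved by 0.21 (0.53 in FBR), more than 99.7% of the tested probes, so the IL5 probes moved in opposite directions. Unstimulated IL4 therefore read higher where stimulated RNA was on the same array, and a fold for IL4 depends on which arrays are used.

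Whether the 3 genes differed in the size of their responses was compared over the 4 animals with the brightest probe of each gene. On the ratio arrays IL5 exceeded IL4 by 0.77 in FNV and by up to 2.05 in the other animals, with a mean of 1.38 ± 0.55 (log2, SD, n = 4). With the other probe of each gene, a comparison added after the data were seen, the mean was 0.20 ± 0.15, from 0.06 in FTV to 0.40 in FKN. With the brightest probes IL5 exceeded IL13 by 2.59 ± 1.43, and IL4 exceeded IL13 by 1.21 ± 1.82, each in 4 of 4 animals. The exact two-sided sign-flip permutation test gave p = 0.125 for each of the 3 pairs, and 0.125 after adjustment over them, which is the smallest p that 4 animals allow, so the design could not pass 0.05. The order of IL5 and IL4 turned on the self-self arrays, where IL5 minus IL4 was -0.30 ± 0.28 and below 0 in 4 of 4 animals; this comparison was added after the data were seen. The differences of IL5 from the other genes rest in part on weak unstimulated IL5 signals in FBR and FTV. Both differences from IL13 include FNV, where unstimulated IL13 was not above background. Without FNV, IL5 minus IL13 had a mean of 1.89 and IL4 minus IL13 of 0.31. With the scanner software's ratios over all 4 animals, IL4 minus IL13 was -0.29. IL5 stayed above IL13 on both kinds of array, and all 3 genes rose in each animal.

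The comparison of animals with low and normal CD4 status asked whether the members differed with the CD4 status of the infected animal. It had 2 animals on each side. For IL13, the response was 4.75 in FBR and 4.19 in FTV, and 1.14 in FNV and 3.53 in FKN. The groups did not overlap, which held for 27% of all tested probes. The difference of low minus normal was 2.13 ± 0.83 (log2, SE), with an adjusted p of 1.00 in limma, and did not pass. Among the 3 animals of the later scan batch, without FNV, it was 0.94. The IL4 response, at a mean of 4.68 in low and 4.55 in normal animals, and the IL5 response, at 6.28 and 5.71, overlapped between the groups and did not pass either. No probe of the array passed in this comparison (0%), at an unadjusted p under 0.05 there were 594 of 27493, and limma was the only tool used for it.

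Levels in each state were compared in the same way. The unstimulated level of the IL5 stop codon probe was 9.17 in FNV and 7.50 in FKN, and 7.07 in FBR and 6.86 in FTV, on the Aquantile-normalised log2 scale. Both CD4-normal animals lay above both CD4-low animals, and such a lack of overlap held for 34.3% of the tested probes. The difference of -1.38 ± 0.59 (SE) had an adjusted p of 0.82 (limma), and it was -0.54 without FNV. With the second IL5 probe the groups overlapped, with 7.19 in FKN and 7.21 in FBR, and the difference was -0.90. The stimulated level of IL13 was 8.02 in FNV, 10.19 in FKN, 11.75 in FBR and 10.53 in FTV. Its difference of 2.04 ± 0.86 (SE) had an adjusted p of 0.83 (limma) and was 0.95 without FNV. The groups did not overlap, which held for 34.2% of the tested probes. Stimulated IL4, at 13.78 in FNV, 13.90 in FKN, 14.79 in FBR and 13.56 in FTV, and stimulated IL5, at 14.93, 12.87, 13.64 and 12.30, overlapped between the groups. No probe passed in either comparison of levels (limma), with 445 and 530 probes at an unadjusted p under 0.05 in unstimulated and stimulated cells.

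The genes around the 3 cytokines on chromosome 6 gave an uneven picture. Within 500 kb of the outermost member probes, 28 further probes of 18 named genes lay, and 25 of them were well above background. Of these, 10 rose, 3 fell and 12 did not pass, against 19.9% of all tested probes that rose and 20.4% that fell. RAD50, whose probe lies 20.6 kb before IL13, rose by 0.95 ± 0.36 (log2, SD, n = 4), with 0.40 in FNV, 1.10 in FKN, 1.16 in FBR and 1.12 in FTV. It was lowest in the same animal as IL13, and with median centring in place of loess it had 0.90 and was not called (adjusted p = 0.074, limma). KIF3A, a kinesin motor subunit 38.2 kb beyond IL13 on the other side of IL4, had 0.06 ± 0.20 and did not pass. IRF1, an interferon regulatory factor 174 kb before IL13, rose by 0.90 ± 0.53, and its call was lost without FKN (1.01, adjusted p = 0.053, limma) or without FBR (0.89, adjusted p = 0.084). SEPT8, a septin, fell by 0.95 with one of its 4 probes and by 0.70 and 0.22 with 2 others, while the last had -0.02.

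Farther away, the 2 cytokine genes IL3 and CSF2 rose with the members. IL3, a growth factor of basophils and mast cells, had 1.74 in FNV, 2.53 in FKN, 3.67 in FBR and 1.65 in FTV, a mean of 2.40 ± 0.94 (log2, SD, n = 4; adjusted p = 0.0055, limma). CSF2, which encodes the growth factor GM-CSF, had 1.50, 1.68, 3.21 and 2.21 in the same order, with a mean of 2.15 ± 0.77 (adjusted p = 0.0042). FBR was highest for both, as it was for IL5 and IL13. IL3 was well above background in 6 of 16 unstimulated and 16 of 16 stimulated channels, and CSF2 in 16 of each. The organic cation transporter gene SLC22A5 (0.26), the mitochondrial complex III subunit gene UQCRQ (0.53 and 0.52 with 2 probes), ZCCHC10 (0.31) and the chaperone gene HSPA4 (0.71) also rose. The ZCCHC10 call was lost without FKN (0.30, adjusted p = 0.052, limma), and that of SLC22A5 without FKN, FBR or FTV (0.20 to 0.29, adjusted p of 0.083 to 0.15). With median centring the calls of HSPA4, UQCRQ, SLC22A5 and ZCCHC10 were all lost (adjusted p of 0.078 to 0.31, limma). SLC22A4 (-0.04), PDLIM4 (-0.36), P4HA2 (-0.02), SHROOM1 (0.03), LEAP2 (0.10) and AFF4 (0.20) did not pass, and ARIH2, named so in the files, had 0.08 to 0.17 with 4 probes. A probe of CCNI2 and a second probe each of PDLIM4 and LEAP2 were not well above background.

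**Figure D4:**
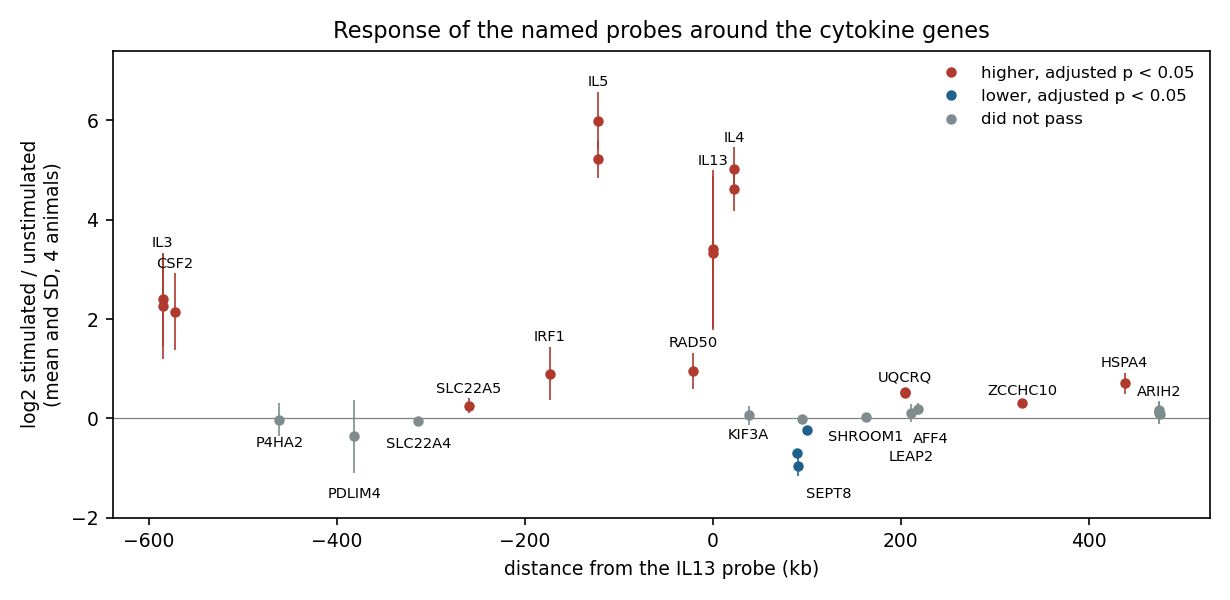
Mean log2 ratio of stimulated over unstimulated signal with its SD over 4 animals (vertical axis) for the tested probes with a gene name, by distance from the IL13 probe in kb (horizontal axis), coloured by the limma call. The member probes and, 573 to 585 kb to the left, CSF2 and IL3 stand above 2, and the genes among and around them stay between -0.95 and 0.95.

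Other genes were ranked by how near their responses lay to those of each member across the 4 animals. Nearness was the root mean square difference of the 4 log2 ratios, over 8771 other named genes. Nearest to IL5 were IFNG, the cytokine interferon gamma (0.65), and IL22, a cytokine that acts on epithelium (0.82), followed by PTGS2 (1.34), IL4 (1.46) and CCL20 (1.56). Nearest to IL4 were PTGS2, the inducible cyclooxygenase (0.42), the chemokine gene CCL20 (0.75), IL10 (0.85), IFNG (0.93) and the chemokine gene CXCL11 (1.12). For IL13 they were TNFRSF9, the costimulatory receptor 4-1BB (0.68), TNIP3, an inhibitor of NF-kB signalling (0.78), the signalling kinase gene RIPK2 (0.87), the growth factor gene PDGFA (0.93) and the interferon regulatory factor gene IRF8 (0.99). The values matched for IL13 include that of FNV, which was not measured above background in unstimulated cells.

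Other genes of the type 2 pathway were counted by list, 1 probe per gene. Of 70 listed genes other than the members, with IL3 and CSF2 included and the other chromosomal neighbours left out, 61 were matched to a probe, 53 were well above background, 29 rose and 4 fell. The shares were 54.7% and 7.55% of those tested, against 19.9% and 20.4% of all tested probes, and the median log2 ratio was 0.47 against -0.01. Genes well above background only after stimulation could enter these counts, and for them a rise was favoured by the filter. With median centring the calls of IL31, IL4R, SOCS3, NOTCH1, CTCF, TBX21 and ZFPM1 were lost (adjusted p of 0.052 to 0.26, limma). Of 4 tested ligands linked to type 2 responses, all rose. The filter accepts a gene that is well above background in 1 condition alone, so this count was partly set by it. IL31 was well above background in 3 of 16 unstimulated and 16 of 16 stimulated channels, TSLP in 1 and 9, and AREG in 7 and 15. IL10 was so in 16 of 16 channels of each condition. IL10, an inhibitory cytokine, had 3.92 ± 0.33 (SD, n = 4), although a second IL10 probe had 0.85. AREG, a growth factor of the EGF family, had 1.57 ± 0.49, IL31, a cytokine linked to itch, 1.44 ± 0.88, and TSLP, an epithelial cytokine, 0.49 ± 0.36. The IL31 call was lost without FKN (1.58, adjusted p = 0.062, limma) or without FBR (1.09, adjusted p = 0.058), and the TSLP call without FKN, FBR or FTV (0.34 to 0.57, adjusted p of 0.088 to 0.15). IL25, IL33 and IL24 were not well above background.

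Of the receptor chains for the 3 cytokines, 1 of 4 tested genes rose and none fell. IL4R rose by 0.45 ± 0.25 (adjusted p = 0.022, limma), although its probes ranged from 0.12 to 0.45, and the call was lost without FBR (0.49, adjusted p = 0.070) or without FTV (0.35, adjusted p = 0.058). The other 3 tested receptor genes did not pass, with 0.21 for IL2RG (its probes ranged from 0.21 to 0.42), 0.07 for CSF2RB and -0.16 for IL13RA1. IL5RA was well above background in 2 of 16 unstimulated and 1 of 16 stimulated channels, and IL13RA2 in 1 and 0. The IL13RA2 probe was named by its description, while the gene name column gives IL5RA for it. Among surface markers of type 2 cells, PTGDR2, the prostaglandin D2 receptor also called CRTH2, fell by 3.05 ± 0.36, with -2.57 in FNV, -2.99 in FKN, -3.30 in FBR and -3.33 in FTV (adjusted p = 0.00052). The chemokine receptor genes CCR4 (0.83 ± 0.34) and CCR8 (0.75 ± 0.45) rose, but CCR8 was not called without FKN, FBR or FTV (0.64 to 0.72, adjusted p of 0.085 to 0.099, limma). CCR8 was well above background in 0 of 16 unstimulated and 12 of 16 stimulated channels. IL1RL1 and IL17RB, receptors of interleukins 33 and 25, had 0.07 and -0.00 and did not pass. The direction of PTGDR2 was thus opposite to that of the cytokines in each animal.

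Of 7 tested genes of the JAK-STAT signal below these receptors, 3 rose and 1 fell. STAT5A rose by 1.96 ± 0.26, the kinase gene JAK2 by 1.38 ± 0.37 and STAT3 by 0.60 ± 0.20, while the adaptor gene IRS2 fell by 1.54 ± 0.34, with -0.52 for a second probe. STAT6, the factor that interleukins 4 and 13 activate, had 0.25 ± 0.22 and did not pass (adjusted p = 0.089, limma). Without FNV, STAT6 passed (0.36, adjusted p = 0.012, limma). Without FKN, FBR or FTV it did not (0.19 to 0.26, adjusted p of 0.21 to 0.27). Of 7 tested inhibitors of the signal 5 rose, with the largest values for CISH (2.68 ± 0.95) and SOCS1 (1.72 ± 0.25) and the smallest for PTPN11 (0.72 ± 0.14) and SOCS3 (0.52 ± 0.21). The SOCS3 call was lost without FKN (0.51, adjusted p = 0.054, limma) or without FBR (0.49, adjusted p = 0.055).

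Of 16 tested activators of the type 2 locus, 10 rose and 1 fell. GFI1, a transcriptional repressor that supports type 2 cells, rose by 2.31 ± 0.16 and BATF, a partner of JUN proteins in AP-1, by 2.27 ± 0.55. NOTCH1 had the smallest rise, 0.30 ± 0.13, with the call lost without FKN, FBR or FTV (0.26 to 0.31, adjusted p of 0.081 to 0.099, limma), and CTCF, a factor that shapes chromatin loops, fell by 0.45 ± 0.05. GATA3, the defining factor of type 2 helper cells, had 0.77 in FNV, 0.21 in FKN, 0.67 in FBR and 0.05 in FTV, and its mean of 0.42 ± 0.35 did not pass (adjusted p = 0.062, limma). It did pass with median centring (0.51, adjusted p = 0.049, limma) and without FTV (0.55, adjusted p = 0.049). Without FNV, FKN or FBR it did not (0.31 to 0.50, adjusted p of 0.11 to 0.20). Of 8 tested repressors, RUNX1 rose by 1.04 ± 0.20 (its probes ranged from 0.13 to 1.06) and TBX21, the defining factor of type 1 cells, by 0.37 ± 0.21, with the TBX21 call lost without FKN, FBR or FTV (0.32 to 0.36, adjusted p of 0.097 to 0.11, limma). ZFPM1, a partner protein that restrains GATA factors, fell by 0.35 ± 0.07, and the other 5 did not pass. MAF was not analysed here.

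**Figure D5:**
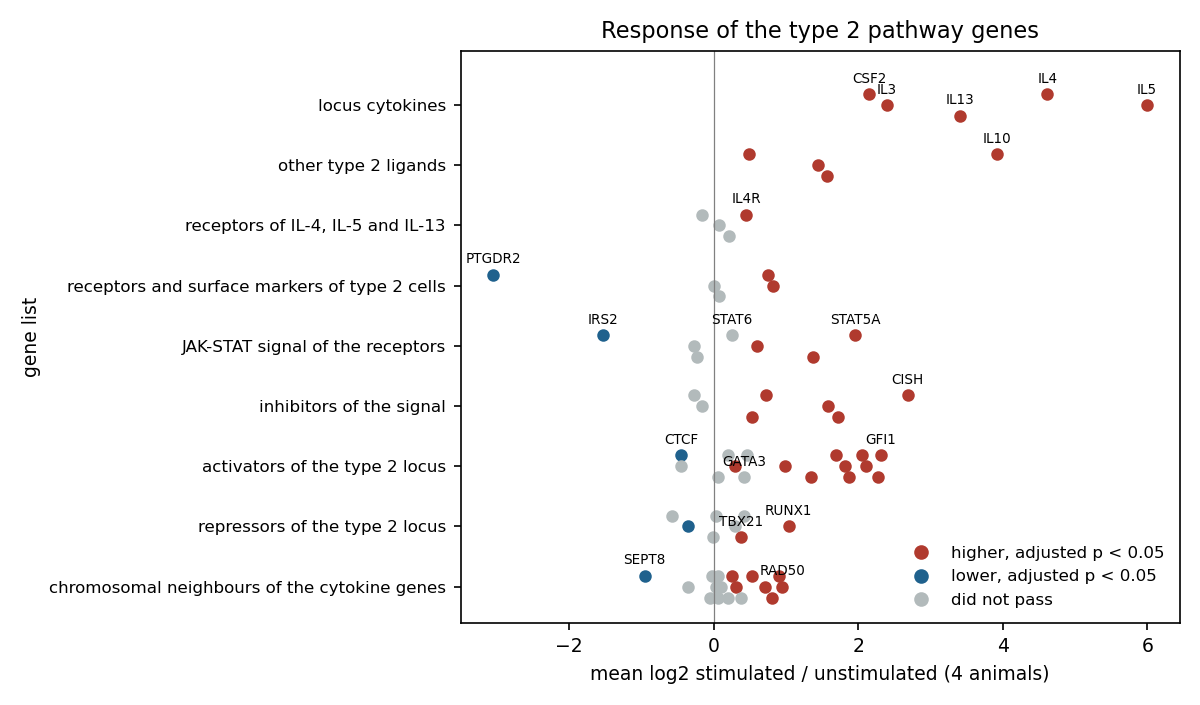
Mean log2 ratio of stimulated over unstimulated signal over 4 animals (horizontal axis) for the tested genes of 9 lists (vertical axis), coloured by the limma call, with points spread within a list only for legibility. The locus cytokines lie between 2.15 and 6.0, PTGDR2 at -3.05, and the receptor chains and the repressors between -0.58 and 1.04.

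Markers of T cells and of other cells that make or answer to these cytokines were read beside the members. All 9 matched T cell genes were well above background, with mean list levels per animal of 10 to 10.9 (log2) in unstimulated and 10.2 to 10.8 in stimulated cells. Of the 9, 4 rose and 3 fell, from 0.89 for CD3D, a chain of the T cell receptor complex, to -1.0 for CD5, an inhibitory receptor whose call was lost without FKN, FBR or FTV (adjusted p of 0.053 to 0.065, limma). Without FBR every call of this list but that of CD3D was lost (adjusted p of 0.052 to 0.075). With median centring those of CD2, CD3G, TRDC and CD247 were lost (0.055 to 0.10). Beside the counts of all marker lists stand the 19.9% of tested probes that rose and 20.4% that fell. CD4 and CD8B, which the cells should lack, were well above background in 16 of 16 channels of each condition. CD8B rose by 0.23 ± 0.11 (adjusted p = 0.040, limma), and CD4 had 0.05 and did not pass. The CD8B call was lost with median centring and without FKN, FBR or FTV (adjusted p of 0.14 to 0.38, limma). Of 9 matched genes of basophils and mast cells, which also make interleukins 4 and 13, 8 were tested. HDC, the histamine synthesis gene (1.37 ± 0.43), CD200R1 (1.20 ± 0.57) and HPGDS (0.44 ± 0.20) rose, CPA3 fell by 0.22 ± 0.05, and 4 did not pass. Leaving out FKN ended the calls of CD200R1, HPGDS and CPA3 (adjusted p of 0.055 to 0.12, limma), and those of HPGDS and CPA3 were also lost without FBR or without FTV. With median centring all 3 calls were lost (adjusted p of 0.056 to 0.21). The mean level of that list was 7.15 to 8.34 in unstimulated and 7.52 to 8.41 in stimulated cells. MS4A2, the beta chain of the IgE receptor, was well above background in 3 of 16 unstimulated and 2 of 16 stimulated channels. The eosinophil peroxidase gene EPX was above background in 0 of 16 channels of each condition, and of 6 matched eosinophil genes 2 were tested. Of these, PRG3, a granule protein gene, fell by 0.24 and the other, RNASE2, did not pass. List levels were 7.71 to 7.90 in unstimulated and 7.54 to 7.89 in stimulated cells. These means were raised by PRG3, which had 13.3 in unstimulated cells, where RNASE2 had 7.41 and EPX 6.46. The PRG3 call was lost without FKN, FBR or FTV (adjusted p of 0.052 to 0.10, limma), and its direction turned to 0.020 with stimulated RNA in Cy3 only.

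Of 8 genes of type 2 innate lymphoid and innate-like T cells, 4 rose and none fell, led by ID2 (2.12 ± 0.40) and RORA (1.07 ± 0.26), both of which T cells also express. The calls of IL18R1 and IL18RAP were lost with median centring (adjusted p = 0.076 and 0.052, limma). That of IL18R1 was also lost without FKN, FBR or FTV (0.093 to 0.12). List levels were 8.38 to 8.80 unstimulated and 8.87 to 9.44 stimulated. Of 8 monocyte genes 5 fell and none rose, with list levels of 8.66 to 11.6 in unstimulated and 8.22 to 10.2 in stimulated cells. The calls of CD14 and MNDA were lost with median centring (adjusted p = 0.12 and 0.086, limma) and without FKN (0.077 and 0.11). That of CD14 was also lost without FTV (adjusted p = 0.061, limma), and that of MNDA without FBR (0.061). Of 5 tested B cell genes 4 fell and none rose, with list levels of 8.40 to 9.85 and 7.35 to 8.85. The call of BLK was lost without FBR (adjusted p = 0.063, limma). The part of these cells in the member values was not tested.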

How the data were processed

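The members and gene lists were chosen with earlier results of these data known. Per the file headers, the authors deposited output of Agilent Feature Extraction 10.7.3.1: linear intensity of spots and of their local background, with flags, and the software's log10 ratio of red over green after its own corrections. The authors' deposited table gives log2 ratios per animal and transcript, by a method not given in the sources used here. The submitters' processing notes name limma without a role.

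R 4.3.3 with limma 3.58.1 (and version 1.17.8 of data.table) corrected signals with normexp (offset 50) and applied loess within arrays; outlier and control spots had no weight and no spot was saturated. Ratios were turned to stimulated over unstimulated and both ratio arrays of an animal averaged (n = 4). For 1 ratio array of FNV the title and a characteristic disagree on the channels, and the title was followed. Levels are Aquantile-normalised means of 4 channels. The filter asked for a signal well above background in a condition on both ratio arrays, for 2 animals or more. limma tested the mean response and CD4 status with Benjamini-Hochberg adjustment over 27493 probes; an adjusted p under 0.05 is called rose or fell. On simulated data of 27493 probes, 94% of changes of 2 (log2) and 69% of changes of 1 were recovered for the response, and 34% and 0% for CD4 status. Names came from the gene name column, description, older edition or aliases; 24362 probes stayed unnamed. The text names every member probe, the 5 nearest genes per member, all named probes within 500 kb, the 2 largest and 2 smallest passing responses per list, GATA3, MAF, STAT6, IL4R, PTGDR2, RAD50, IL3 and CSF2, and cell type markers. A listed gene is represented by its brightest probe among those that passed the filter. Replicate numbers mark the animal and so pair the samples. Figures used Python 3.11.15 and matplotlib 3.10.9.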

Additional observations from a re-analysis of the deposited data

How the results depend on the processing

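The responses of the 6 probes kept their direction and passed the threshold under these alternatives: other background corrections and normalisation, no filter, 1 probe per gene (run for the brightest probes alone), each dye alone, without the array whose labels disagree, a scan batch term, self-self arrays and leaving out each animal. Leaving out an animal moved the means between 4.46 and 4.81 and between 4.87 and 5.20 for the IL4 probes, 5.71 and 6.13 and 5.10 and 5.33 for IL5, and 2.96 and 4.16 and 2.87 and 4.07 for IL13; the adjusted p of IL13 reached 0.048 and 0.049 without FKN. The authors' deposited table gave larger means, 5.24 for IL4, 6.66 and 5.85 for IL5 and 4.60 for IL13; the cause was not tested. With the self-self arrays paired by the animal as a replicate block the brightest probes gave 5.87, 5.57 and 3.33; without the block the values were the same, and 2159 in place of 8169 probes passed. The count of probes passing in the response was 11082, 4851 with median centring and 5796 to 14074 without an animal. IL5 minus IL4 turned to -0.30 on the self-self arrays and IL4 minus IL13 to -0.29 with the scanner software's ratios.

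For CD4 status no member probe passed except IL13 in the stimulated level without FKN (3.12 for both probes, adjusted p = 0.049 and 0.047 in limma), when 5120 probes passed and FNV alone, from the earlier scan batch, stood for normal; a lone animal is assumed to vary like the other group. The counts of probes that passed without an animal were 0 to 2 for the unstimulated level, 0 to 5120 for the stimulated level and 0 for the response, and the IL13 difference in stimulated level was 0.95 to 3.12 and 0.97 to 3.12. Directions of differences that did not pass turned for the brighter IL4 probe in the response (scanner ratios, -0.018; -0.39 to 0.65 without an animal), for the other IL4 probe (-0.11 to 0.69 without an animal) and for the second IL5 probe (-0.26 to 0.39). Unstimulated IL4 differences, -0.09 and -0.17, became 0.19 and 0.078 with channels scaled to their median, 0.41 and 0.30 without normalisation between arrays, and 0.25 and 0.092 on ratio arrays alone; without an animal they ran from -0.52 to 0.35 and from -0.54 to 0.21, and for IL13 from -0.22 to 0.31 and from -0.089 to 0.36. Stimulated IL4 differences ran from -0.28 to 0.95 and from -0.33 to 1.08 without an animal, and stimulated IL5 from -1.96 to 0.097 and from -1.91 to 0.20, with 0.31 and 0.48 without normalisation between arrays. Of the list counts under the alternatives, 248 stayed within 1.5 times the value given and 40 did not. Signal over background limits IL13 in FNV. Unstimulated signals were also weak for IL13 in FTV, where the brighter probe had 4.19 as reported and 5.69 with the scanner software's ratio. The same held for unstimulated IL5 in FBR and FTV.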
